A study of Mus musculus with 2 samples.

Results

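The Hedgehog pathway genes and co-receptors described here are 9 genes, *Ptch1*, *Hhip*, *Smo*, *Cdon*, *Boc*, *Gas1*, *Gli1*, *Gli2* and *Gli3*, chosen by symbol from the 33696 genes listed in the deposited matrices, and all 9 were found in both libraries. They were read in fibroblasts, taken as cells with at least 500 detected genes, at most 10% mitochondrial UMIs and at least 1 UMI of *Pdgfra*. These were 18878 of 21688 barcodes in the pubertal library and 20999 of 23183 in the adult library. Stroma of female wildtype C57BL/6 mammary glands had been sorted as lineage-negative and CD24-negative at 4 weeks (puberty) and 9 weeks (virgin adult), and each stage was 1 droplet library, labelled replicate 2, of cells from 2 females per the labels. No agent had been given, no transgene was carried, and other libraries of the study were not analysed here. With 1 library per stage no test between stages was possible, so a stage difference is the difference between these libraries.

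Hedgehog ligands bind the receptor PTCH1, which otherwise holds the transmembrane protein SMO inactive, and released SMO acts through the primary cilium on the GLI transcription factors. CDON, BOC and GAS1 are co-receptors that help the ligand bind, HHIP is a membrane-anchored decoy that takes ligand away, GLI2 is the main activator, GLI3 is mostly a repressor, and GLI1 is an activator that is itself switched on by the pathway. Because *Gli1*, *Ptch1* and *Hhip* are transcribed in response to the signal, their RNA is widely read as a sign of a responding cell, which in the mammary gland is mostly a stromal cell.

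Fibroblasts made up 87.7% of kept cells at puberty and 91.4% in the adult, with median depths of 12187 and 11265 UMIs. The fibroblast markers that the rule had not used were all detected in 98.3% and 97.4% of them. The same share was not read in cells without *Pdgfra*, so it does not test identity. The libraries shared 145 cell barcodes. Cells were then picked by overlapping marker rules. Cells with both *Pi16* and *Dpp4*, markers of mesenchymal progenitors, numbered 13983 (74.1% of fibroblasts) at puberty and 8853 (42.2%) in the adult. Cells with *Gdf10* or *Fmo2*, markers of adipogenesis-regulatory fibroblasts, numbered 7462 and 10066, those with *Thbs4* or *Bmp5*, markers of lobular-like fibroblasts, 927 and 3117, those with at least 2 UMIs of the preadipocyte marker *Fabp4* 1779 and 2553, and those with *Crabp1* 289 and 2672. In the pubertal library 30.7% of fibroblasts and in the adult 35.5% met more than 1 rule, so the subsets share cells. Levels are UMIs summed over a group of cells in CPM, the UMIs of a gene per 1000000 UMIs of the group, with exact 95% Poisson intervals that cover counting error only. They are compared between cells for 1 gene at a time, since they are not per length.

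*Hhip* and *Gli1* were concentrated in Gdf10 or Fmo2 cells and low in Pi16+Dpp4+ cells. *Hhip*, the decoy, stood at 30.5 CPM in Gdf10 or Fmo2 cells of the pubertal library and at 12.6 CPM in those of the adult. Pi16+Dpp4+ cells held 3.07 and 1.80 CPM. Thbs4 or Bmp5 cells were between them at 22.7 and 8.72 CPM, and Fabp4 cells held 7.76 and 3.98 CPM. Both subsets share cells with Gdf10 or Fmo2 cells. The shared part was 37.2% and 37.9% of Thbs4 or Bmp5 cells and 60.7% and 72.3% of Fabp4 cells. Crabp1 cells held 4.95 and 3.67 CPM, with intervals that overlap those of Fabp4 cells in both libraries. Gdf10 or Fmo2 cells, 39.5% of pubertal and 47.9% of adult fibroblasts, contained 94.8% and 87.5% of all *Hhip* UMIs of fibroblasts. Since subsets share cells, Pi16+Dpp4+ cells contained 17.5% and 12.0% of all *Hhip* UMIs. The gene was read in few cells, 914 (4.84%) at puberty and 674 (3.21%) in the adult, but with 3.48 and 2.70 UMIs per positive cell and up to 56 and 36 UMIs in 1 cell.

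**Figure D1:**
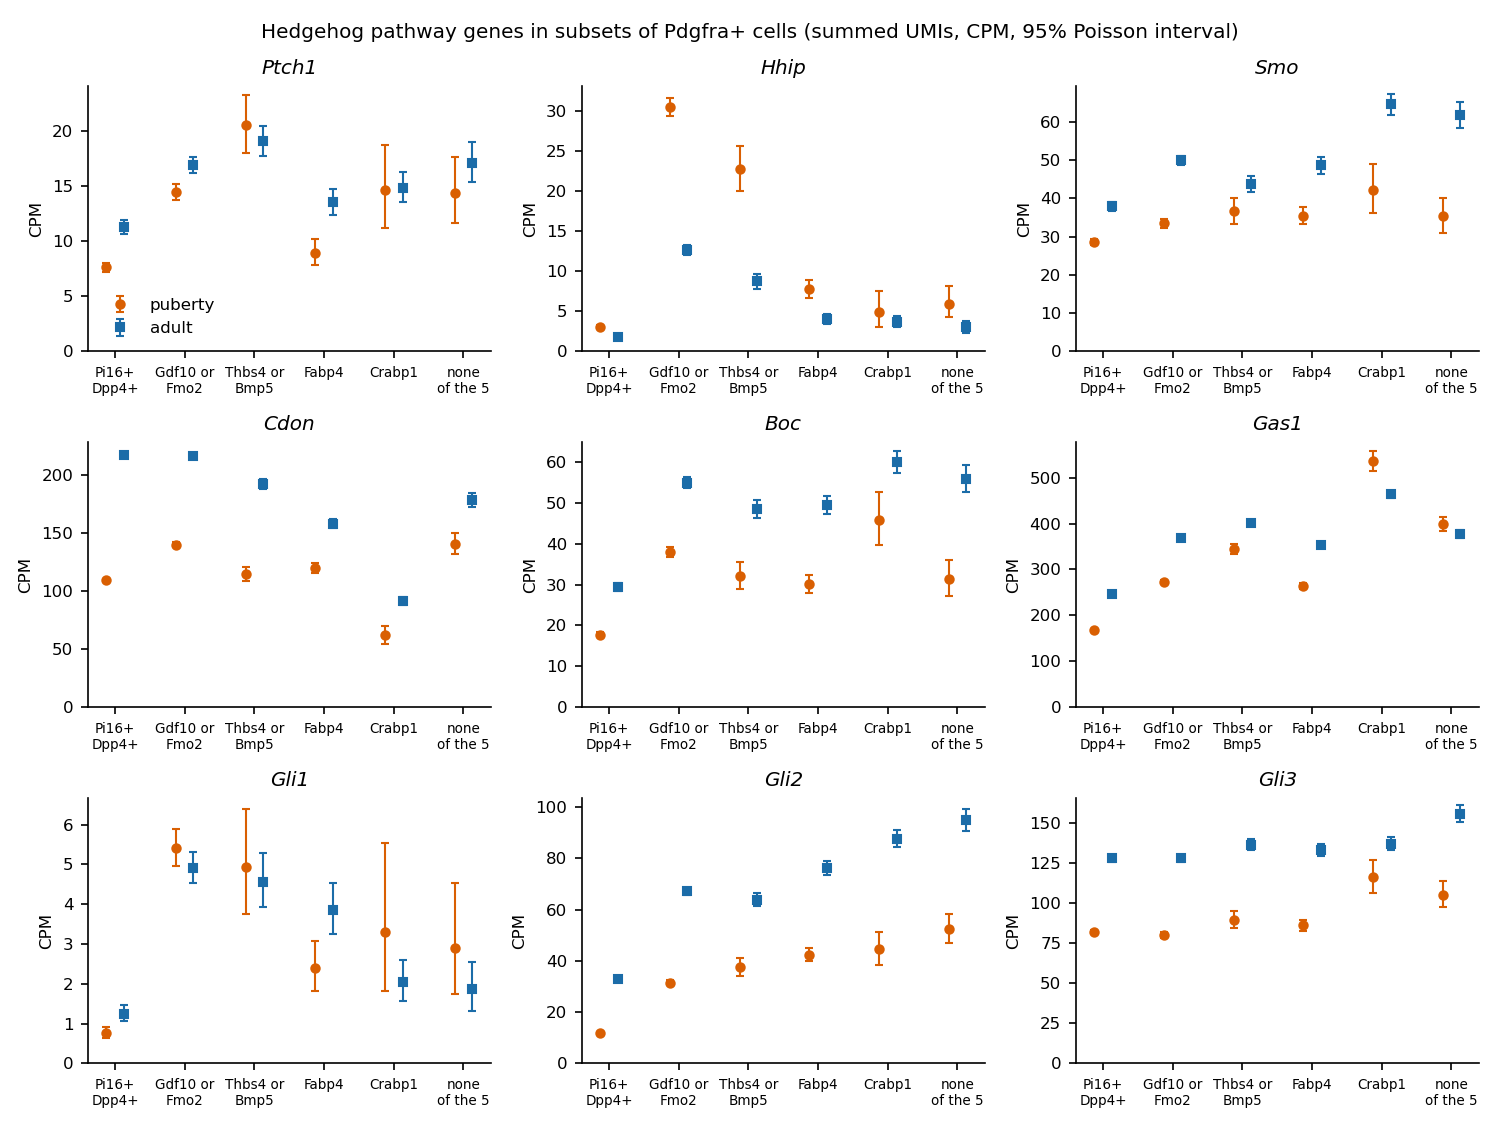
Level of each gene in CPM (y axis, linear, from 0) in the 5 overlapping subsets and in fibroblasts of none of them (x axis), with 1 point per library (puberty, circles; adult, squares) and bars for the 95% Poisson interval. *Hhip* and *Gli1* are lowest in Pi16+Dpp4+ cells in both libraries, and *Cdon* is lowest in Crabp1 cells.

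*Gli1*, the pathway's own target and activator, followed a like order with lower counts. In Gdf10 or Fmo2 cells it stood at 5.41 CPM at puberty and 4.90 CPM in the adult, and at 0.764 and 1.25 CPM in Pi16+Dpp4+ cells. Thbs4 or Bmp5 cells, at 4.94 and 4.57 CPM, could not be told from Gdf10 or Fmo2 cells by their counting intervals. *Gli1* was detected in 536 pubertal fibroblasts (2.84%) and 678 adult fibroblasts (3.23%), and 458 and 571 of these had a single UMI. The receptor *Ptch1* varied less, from 7.64 CPM in Pi16+Dpp4+ cells to 20.5 CPM in Thbs4 or Bmp5 cells at puberty and from 11.3 to 19.1 CPM between the same subsets in the adult. *Gli2* was lowest in Pi16+Dpp4+ cells, at 11.8 and 32.9 CPM, and highest among the subsets in Crabp1 cells, at 44.6 and 87.7 CPM. At puberty the *Gli2* intervals of Crabp1 and Fabp4 cells (42.3 CPM) overlapped. *Gli3*, mostly a repressor, lay between 80.0 and 116 CPM at puberty and between 128 and 137 CPM in the adult.

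The co-receptors did not share 1 order. *Gas1* was highest in Crabp1 cells, at 536 CPM at puberty and 464 CPM in the adult, and lowest in Pi16+Dpp4+ cells, at 169 and 247 CPM. *Boc* had the same extremes, 45.8 and 59.8 CPM in Crabp1 cells against 17.7 and 29.5 CPM in Pi16+Dpp4+ cells. *Cdon* was lowest in Crabp1 cells, at 62.3 and 91.6 CPM, and its Pi16+Dpp4+ level was 109 CPM at puberty but 218 CPM in the adult, where it equalled that of Gdf10 or Fmo2 cells (217 CPM) within counting error. *Smo*, the transducer, ranged from 28.7 to 42.2 CPM at puberty and from 37.9 to 64.6 CPM in the adult, with the lowest value in Pi16+Dpp4+ cells and the highest in Crabp1 cells in both.

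Which genes differed between a subset and the remaining fibroblasts was tested within libraries. UMIs were summed in and out of the subset in each library, the library was kept as a block, and the 4 sums were tested over all expressed genes with edgeR's quasi-likelihood test and Benjamini-Hochberg adjustment. The fit leaves 1 residual degree of freedom, and edgeR draws each gene's spread towards that of all genes. Such a p covers no wider spread than that between these 2 libraries of pooled females. As library and stage are the same here, that spread includes any stage difference. In Gdf10 or Fmo2 cells 5 of the 9 genes were higher and none lower, where 5.61% of 18856 genes tested were higher and 4.98% lower. The median log2 fold of the 9 was 0.55, beside 0.00 over all genes tested. *Hhip* was at 30.5 CPM in and 1.19 CPM out of the subset at puberty and at 12.6 against 1.88 CPM in the adult, a log2 fold of 3.70 ± 0.47 (SE, adjusted p = 0.0210). *Gli1* was at 5.41 against 0.646 CPM and at 4.90 against 1.57 CPM, a log2 fold of 2.30 ± 0.35 (adjusted p = 0.0299). In both genes the subset was the higher side in both libraries, by the wider margin at puberty. *Boc* (log2 fold 0.88, adjusted p = 0.0308), *Gas1* (0.50, 0.0361) and *Cdon* (0.37, 0.0181) rose by less. *Ptch1* (0.55, 0.0594) and *Smo* (0.19, 0.0552) missed the threshold, as did *Gli2* (0.81, 0.0722) and *Gli3* (−0.09, 0.230). *Ptch1* was called under DESeq2 and 4 further alternatives. Of 11 alternatives *Gas1* was called under 8, *Boc* under 9, and *Hhip*, *Gli1* and *Cdon* under 10. Both *Gas1* and *Boc* lost their calls with only cells of that subset alone.

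In Pi16+Dpp4+ cells 6 of the 9 genes were lower and none higher, where 9.16% of 18833 genes were lower, 9.0% higher and 18.2% changed either way. The median log2 fold of the 9 was −1.01, beside −0.01 over all genes tested. *Hhip* was at 3.07 CPM in and 47.9 CPM out of the subset at puberty and at 1.80 against 12.7 CPM in the adult, so that it fell by 3.29 on the log2 scale (SE 0.32, adjusted p = 0.0111). *Gli1* fell by 2.67 (SE 0.41, 0.0256), with 0.764 CPM in and 8.85 CPM out at puberty and 1.25 against 5.20 CPM in the adult. The 2 libraries moved the same way in each. *Gli2* (−1.62, 0.0183), *Boc* (−1.19, 0.0159), *Ptch1* (−1.01, 0.0436) and *Gas1* (−0.81, 0.0239) were also lower. *Smo* (−0.37, 0.0752), *Gli3* (0.03, 0.851) and *Cdon* (0.05, 0.898) were not called. The median ratio of CPM in over out of this subset, before TMM normalization, was −0.15 at puberty and −0.11 in the adult on the log2 scale over all genes.

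The other subsets gave fewer calls or calls in both directions. In Thbs4 or Bmp5 cells edgeR called 0 of the 9 genes, where 4.51% of 18958 genes were called, although 5 had an unadjusted p under 0.05 and DESeq2 called 2. The closest were *Gas1* (log2 fold 0.53, adjusted p = 0.0756), *Ptch1* (0.67, 0.0786) and *Gli1* (0.77, 0.0965), each higher in the subset in both libraries. In Fabp4 cells *Hhip* was the only gene called, at 7.76 against 14.1 CPM at puberty and 3.98 against 7.96 CPM in the adult (log2 fold −0.96 ± 0.11, adjusted p = 0.0104), where 5.74% of 18708 genes were lower. *Gli2* (0.79, 0.0502) missed the threshold there and was called under 7 of 11 alternatives. In Crabp1 cells 5 of the 9 were called in a comparison that called 23.7% of all genes, 10.0% higher and 13.6% lower, and the subset was 289 cells at puberty. *Gas1* (0.82, 3.81e-06), *Gli2* (0.75, 5.72e-05) and *Boc* (0.51, 0.0118) were higher, and *Hhip* (−1.37, 5.54e-08) and *Cdon* (−1.22, 4.21e-12) lower. Of 11 alternatives *Boc* was called under 7, *Gli2* under 9 and the rest under 10. *Gas1* and *Boc* thus moved opposite to *Cdon*, the remaining co-receptor, in Crabp1 cells in both libraries.

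**Figure D2:**
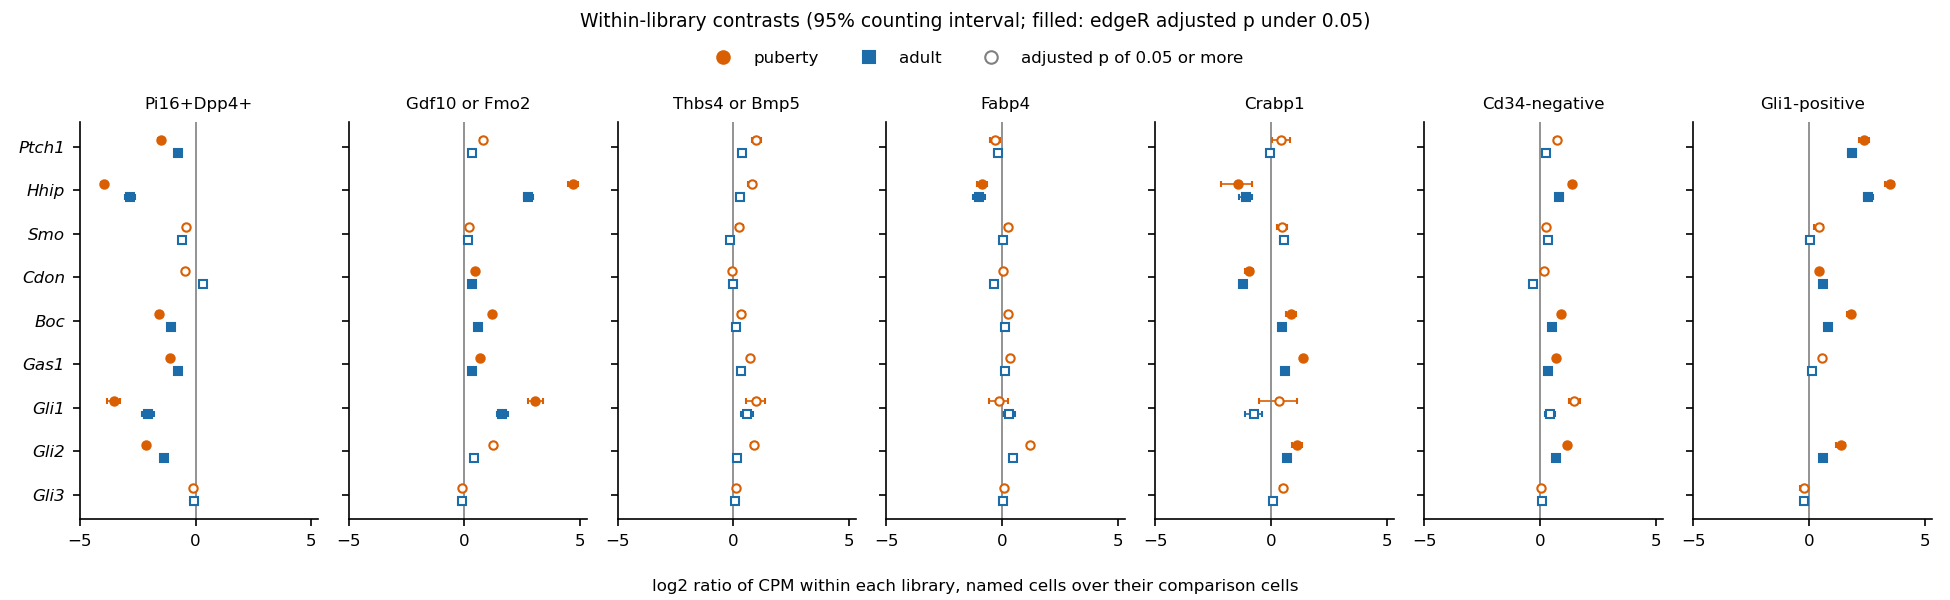
log2 ratio of CPM inside each library (x axis, 95% counting interval) for the 9 genes (y axis), in 7 contrasts of picked cells against their comparison cells. Circles are the pubertal and squares the adult library, and filled symbols have an edgeR adjusted p under 0.05. *Hhip* is to the left in Pi16+Dpp4+, Fabp4 and Crabp1 cells and to the right in Gdf10 or Fmo2, Cd34-negative and Gli1-positive cells.

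To compare shares of positive cells at 1 depth, every cell was thinned to 3000 UMIs and the subsets were picked again on the thinned counts. *Gli1* was then read in 3.17% (95% Clopper-Pearson interval 2.54 to 3.90) of pubertal and 2.36% (1.93 to 2.85) of adult Gdf10 or Fmo2 cells. Without thinning the shares were 6.08% and 5.17%. In Pi16+Dpp4+ cells the thinned shares were 0.185% and 0.239%. Mural cells, the pericytes and smooth muscle cells left in the sort, gave 3 positive cells of 689 (0.435%) at puberty and 0 of 336 in the adult, which allows a share of up to 0.893%. At puberty the Pi16+Dpp4+ share of *Gli1* was the smaller value, but 3 positive mural cells are too few to order it against mural cells. In the adult it was under the limit that 0 of 336 mural cells allows. The Gdf10 or Fmo2 share was above both. Unthinned mural cells held 6 *Gli1* UMIs in each library (1.26 and 2.37 CPM), so they are not known to lack *Gli1*. Whether the Pi16+Dpp4+ share is background could therefore not be decided. Median depths before thinning were 6368 and 6204 UMIs in mural cells. *Hhip* was read in 11.5% and 4.27% of thinned Gdf10 or Fmo2 cells, against 0.871% and 1.19% of mural cells and 0.542% and 0.391% of Pi16+Dpp4+ cells. The Pi16+Dpp4+ share of *Hhip* was the smaller value in both libraries, but few mural cells were positive, so this order is not settled. Mural cells held *Hhip* at 3.58 and 5.14 CPM, so they set no background for this gene either. *Gli2* was read in 6.32% and 16.5% of thinned fibroblasts against 1.45% and 2.38% of mural cells. *Ptch1* was read in more mural cells, 4.06% and 7.74%, than fibroblasts, 3.63% and 4.73%, and its level was 15.6 and 22.9 CPM in mural cells against 10.9 and 15.3 CPM in fibroblasts, so mural cells give no background for *Ptch1*.

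The hierarchy that the study examined runs from cells with high *Cd34*, a progenitor surface marker, to cells with little of it, so the genes were also set against *Cd34*. Fibroblasts were binned by their *Cd34* UMIs after thinning to 3000 UMIs. *Hhip* fell from 26.5 CPM in cells without *Cd34* to 16.9, 12.1, 5.36 and 6.27 CPM in the bins with 1 to 4 UMIs and 1.44 CPM with 5 or more at puberty. In the adult the same bins held 10.7, 8.27, 6.30, 5.29, 3.44 and 2.49 CPM. Every pubertal step but that from 3 to 4 UMIs was downward, as was every adult step. *Gli1* went from 5.45 to 0.834 CPM and from 4.04 to 1.18 CPM between the first and last bins. *Gli2* went from 37.9 to 7.97 CPM and from 81.3 to 24.4 CPM. *Gas1* and *Boc* declined as well, *Gas1* from 309 to 125 CPM and from 395 to 194 CPM, and *Boc* from 41.0 to 14.7 CPM and from 58.4 to 25.3 CPM. *Gli3* stayed between 78.7 and 85.6 CPM at the ends at puberty and between 118 and 137 CPM in the adult. *Cdon* ran the other way in the adult, from 165 CPM without *Cd34* to 197 CPM with 5 or more UMIs, and from 131 to 100 CPM at puberty.

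**Figure D3:**
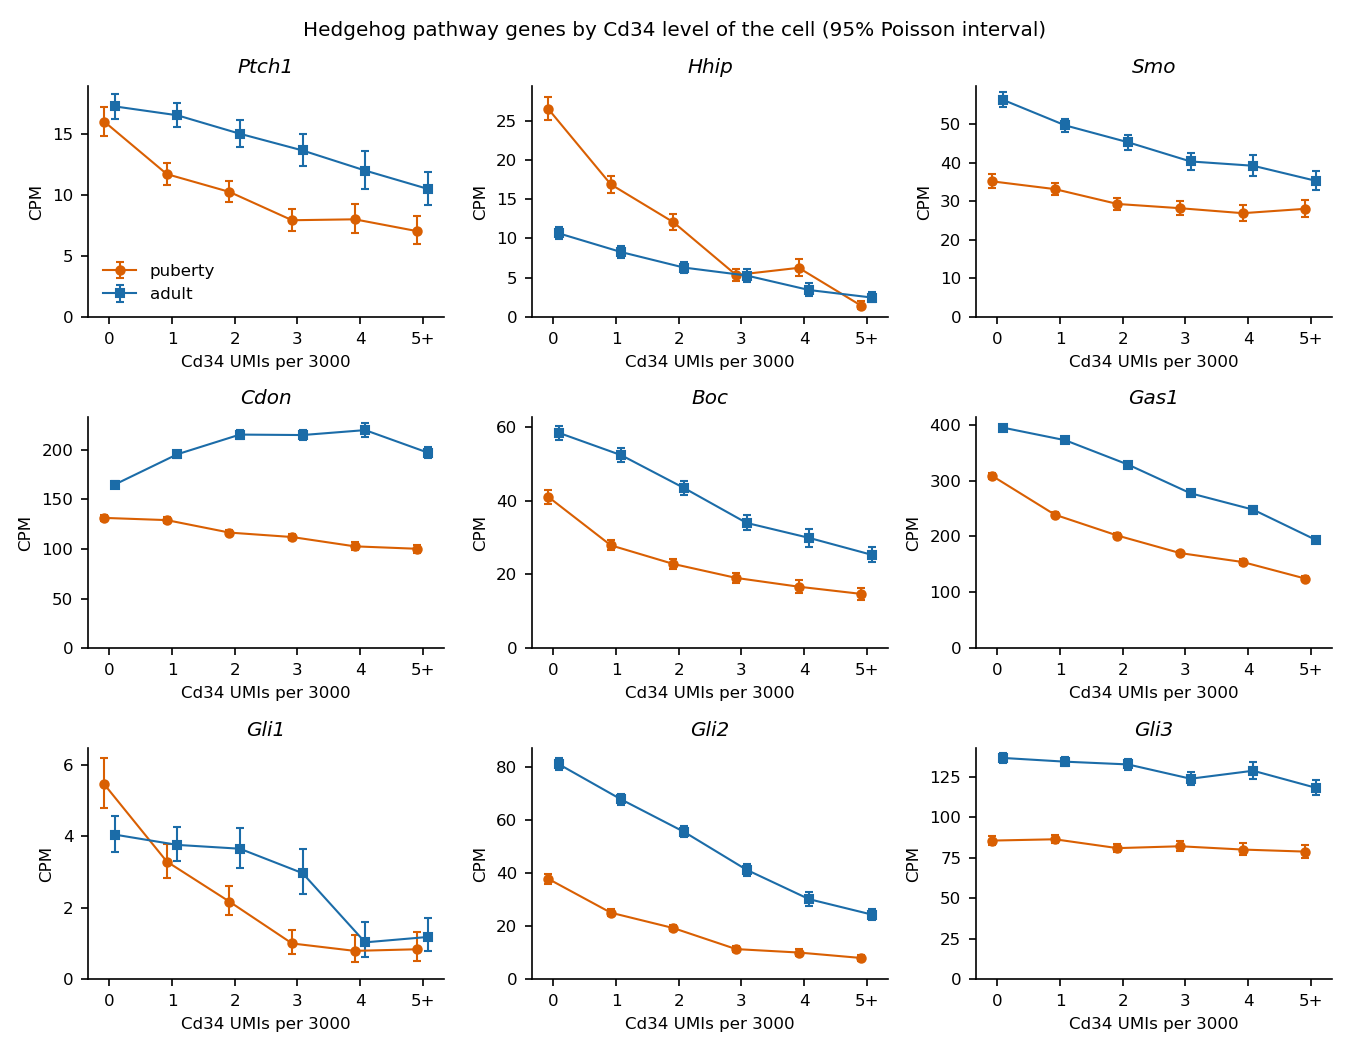
Level of each gene in CPM (y axis, linear, from 0) against the *Cd34* UMIs of the cell after thinning to 3000 UMIs (x axis, last bin 5 or more), with 95% Poisson intervals, for the pubertal library (circles) and the adult library (squares). *Hhip* falls from 26.5 to 1.44 CPM at puberty and from 10.7 to 2.49 CPM in the adult, while *Gli3* ends close to where it began.

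In the within-library test of cells without against cells with a *Cd34* UMI after that thinning, 4 of the 9 genes were higher and none lower, where 5.54% of 18867 genes were higher and 4.96% lower. These were *Hhip* (log2 fold 1.04, adjusted p = 0.0236), *Gli2* (0.85, 0.0247), *Boc* (0.64, 0.0318) and *Gas1* (0.46, 0.0490). *Gli1* (0.89, 0.109) and *Ptch1* (0.43, 0.106) were higher in both libraries and not called. *Gas1* lost its call under 4 of 10 alternatives. Of 8 mural markers 5 were also higher in cells without *Cd34* and 1 was lower. The summed level of the 8 was 234 CPM in cells without and 138 CPM in cells with *Cd34* at puberty and 141 against 95.4 CPM in the adult, with none at 0. Of 4 epithelial markers 1 was higher and none lower, and their summed level was 4.52 against 2.81 CPM at puberty and 3.74 against 0.186 CPM in the adult, with none at 0. Without fibroblasts that carried 3 or more markers of another cell type, 3 of the 9 genes were called, and *Gas1* was not. That alternative was chosen after seeing the data. Beyond it, the part of mural and epithelial RNA in these differences was not tested.

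Between the libraries, 7 of the 9 genes differed past 1.5-fold, 6 of them higher in the adult, where 17.1% of 8645 genes with at least 10 CPM in 1 library passed that fold, 12.0% upward and 5.09% downward. The median log2 ratio of the 9 was 0.63 and that of all 8645 genes was 0.13. *Gli2* differed most, at 21.1 CPM at puberty and 58.8 CPM in the adult, a ratio of 2.79 (95% interval 2.70 to 2.88, counting error only). *Hhip* was the only gene lower in the adult, at 13.4 against 7.36 CPM (ratio 0.547, 0.516 to 0.580). *Hhip* and *Gli2* therefore moved apart between the libraries, and *Gli1*, at 2.64 and 3.27 CPM (ratio 1.24, 1.12 to 1.38), changed by less than 1.5-fold.

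The co-receptors and *Smo* were all higher in the adult library. *Boc* stood at 25.6 and 45.8 CPM (ratio 1.78), *Cdon* at 119 and 196 CPM (1.65), *Gas1* at 215 and 331 CPM (1.54) and *Smo* at 30.8 and 47.3 CPM (1.53). *Gli3* was at 83.0 and 131 CPM (1.58) and *Ptch1* at 10.9 and 15.3 CPM (1.40). The size of most of these depended on the scaling. With TMM scaling, which sets the median of all genes to −0.01, 3 of the 9 passed 1.5-fold, *Gli2* and *Boc* upward and *Hhip* downward, where 15.5% of all genes did, 8.07% upward and 7.39% downward. The count was also 3 when the 5 subsets were weighted equally. The share of Pi16+Dpp4+ cells, in which *Gli2* and *Boc* were lowest, was 74.1% at puberty and 42.2% in the adult. Levels summed over all fibroblasts thus mix cell shares and levels per cell, and the ratios within subsets follow.

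Within subsets, 24 of the 45 gene-by-subset ratios passed 1.5-fold, 19 upward and 5 downward, and 16 (11 upward) with TMM scaling. Of all genes with at least 10 CPM, 13.3% (9.46% upward) passed that fold in Pi16+Dpp4+ cells, 16.4% (10.7%) in Gdf10 or Fmo2, 11.6% (6.21%) in Thbs4 or Bmp5, 13.5% (8.12%) in Fabp4 and 14.7% (8.27%) in Crabp1 cells. With TMM scaling the shares in the same order were 11.9%, 15.0%, 11.0%, 12.7% and 14.5%. These shares leave out genes under 10 CPM in both libraries, while the 45 ratios do not. *Gli1* was under 10 CPM in both libraries in every subset, as was *Hhip* in Pi16+Dpp4+, Fabp4 and Crabp1 cells. Count and shares thus cover unlike genes. The 5 downward ratios include *Gli1* in Crabp1 cells, whose interval spanned 1. *Gli2* was higher in the adult in all 5, by 2.80-fold in Pi16+Dpp4+, 2.13-fold in Gdf10 or Fmo2, 1.70-fold in Thbs4 or Bmp5, 1.80-fold in Fabp4 and 1.97-fold in Crabp1 cells. *Hhip* was lower in 4 past the fold, with ratios of 0.588 in Pi16+Dpp4+, 0.414 in Gdf10 or Fmo2, 0.384 in Thbs4 or Bmp5 and 0.513 in Fabp4 cells, and in Crabp1 cells its interval spanned 1 (0.740, 0.463 to 1.24). Restricting Thbs4 or Bmp5 cells to those of no other subset turned the *Hhip* log2 ratio from −1.38 to 1.29, and thinning brought it from −0.96 to 0.0072 in Fabp4 cells. The Pi16+Dpp4+ levels of *Hhip* and *Gli1* were low, and how much of them is background was not tested. Their ratios there are given as values only. *Gli1* had ratios of 1.63 in Pi16+Dpp4+ and 1.61 in Fabp4 cells, while its intervals spanned 1 in Gdf10 or Fmo2 cells (0.906, 0.806 to 1.02), Thbs4 or Bmp5 cells (0.925, 0.684 to 1.27) and Crabp1 cells (0.616, 0.342 to 1.19). *Gas1* was higher in the adult in 4 subsets, by 1.16-fold to 1.46-fold, and lower in Crabp1 cells (0.866, 0.829 to 0.906).

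**Figure D4:**
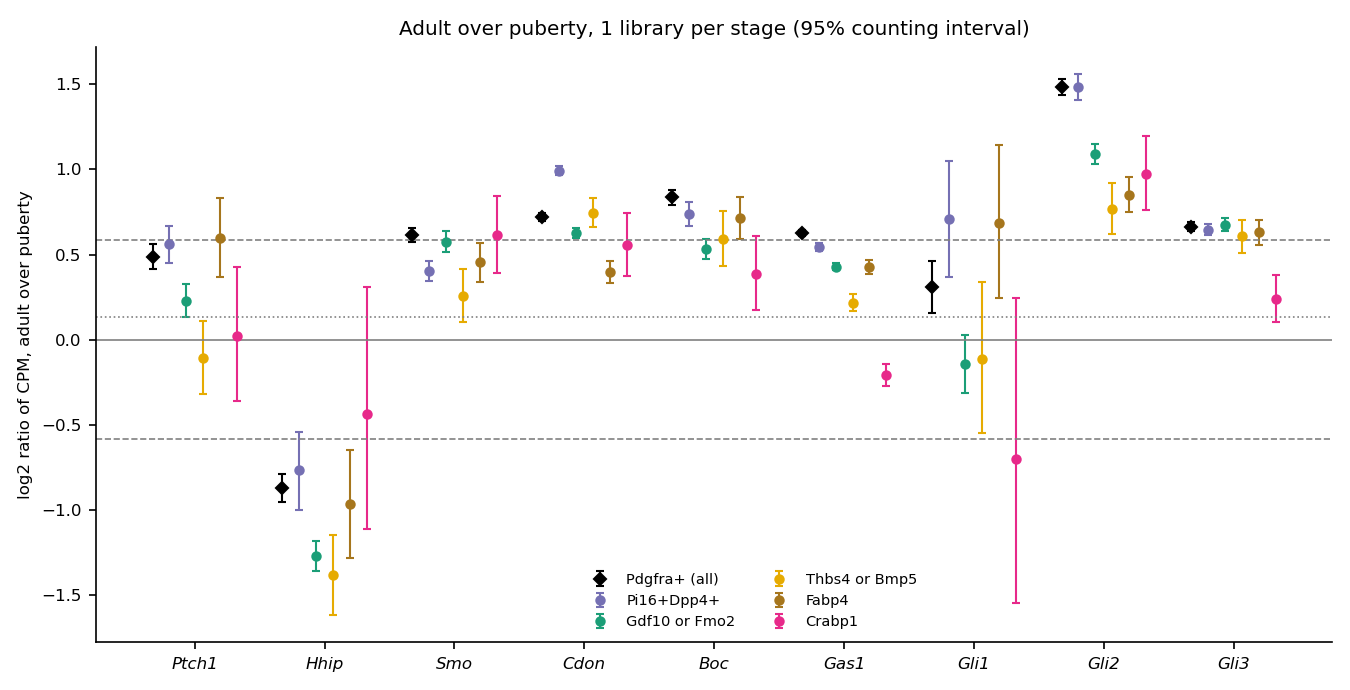
log2 ratio of adult over pubertal CPM (y axis) for each gene (x axis) in all fibroblasts (black diamonds) and in the 5 subsets (coloured circles), with 95% counting intervals and 1 library per stage. Dashed lines mark 1.5-fold and the dotted line the median of all genes, 0.13. *Gli2* is above and *Hhip* below 0 in every group of cells plotted, with the *Hhip* interval in Crabp1 cells crossing 0.

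To describe cells with signs of a Hedgehog response, the 536 pubertal and 678 adult fibroblasts with *Gli1* were set against 2680 and 3390 Gli1-negative fibroblasts of matched UMI depth. Of the other 8 genes 5 were higher and none lower, where 4.98% of 14954 genes were higher, 4.93% lower and 9.91% changed either way. Their median log2 fold was 0.69, beside 0.01 over all genes tested. *Hhip* was at 118 against 10.7 CPM at puberty and 49.6 against 8.43 CPM in the adult (log2 fold 2.98 ± 0.19, adjusted p = 0.000184). *Ptch1* was at 47.3 against 9.20 CPM and at 49.4 against 13.8 CPM (2.05 ± 0.14, 0.000213). The targets of the pathway thus rose together with *Gli1* in both libraries. *Boc* (1.25, 0.00651), *Gli2* (0.91, 0.0127) and *Cdon* (0.47, 0.0261) were higher too, and *Gas1* (0.32, 0.173), *Smo* (0.17, 0.474) and *Gli3* (−0.27, 0.150) were not called. Of 12 alternatives *Cdon* was called under 7, *Gli2* under 9, *Boc* under 10, and *Hhip* and *Ptch1* under 11. DESeq2 and the removal of likely doublets were among those that lost the *Cdon* call. In single cells, *Hhip* was read in 36.4% of *Gli1*-positive and 4.29% of matched cells at puberty and in 14.9% and 3.39% in the adult. *Ptch1* was read in 34.1% and 9.48% at puberty and in 34.2% and 14.0% in the adult.

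*Gli1*-positive cells fell mostly in 1 subset. Gdf10 or Fmo2 cells made up 84.7% of them against 38.5% of matched cells at puberty and 76.7% against 48.6% in the adult. Pi16+Dpp4+ cells made up 23.1% against 75.9% and 19.0% against 44.7%. When each positive cell was matched within the same subset membership, 3 of the 8 genes were called, *Hhip* (log2 fold 1.66), *Ptch1* (1.39) and *Boc* (0.68), and *Gli2* went from 0.91 to 0.21. With thinned cells 2 were called. Scrublet, a doublet caller, had marked 12.1% of positive and 9.44% of matched cells at puberty and 15.6% and 11.5% in the adult.

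The RefSeq promoter windows of 2 genes that moved with *Gli1* are shown for reference. The letters GACCACCCA, a GLI consensus, were searched on both strands in windows of 250 bases before to 50 after each gene start (GRCm38.p6), and 7 of the 9 genes had a window. None of these 7 held the letters exactly, and 0.253% of 32851 windows of all genes did, so no exact match lies in these windows, which says nothing about GLI binding. The closest match had 2 mismatches in *Hhip* (58.3% of all windows held a match with at most 2) and 3 mismatches in *Ptch1* (99.4% held one with at most 3). The 250 bases before the start of both genes are printed 5′ to 3′. Capitals mark the first match found with the fewest mismatches. In *Ptch1* the marked match lies on the opposite strand, and another stretch of the window has as many mismatches. The *Hhip* stretch is chr8:80058009-80058258 on the minus strand. The *Ptch1* stretch is chr13:63565736-63565985 on the minus strand, inside the span from 63508328 to 63573598 that the GRCm38 annotation gives the gene.
Hhip: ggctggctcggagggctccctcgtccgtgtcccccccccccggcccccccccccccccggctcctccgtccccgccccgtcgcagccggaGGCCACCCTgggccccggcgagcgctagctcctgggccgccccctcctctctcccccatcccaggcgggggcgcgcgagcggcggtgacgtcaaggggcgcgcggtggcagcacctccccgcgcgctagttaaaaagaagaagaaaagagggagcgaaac
Ptch1: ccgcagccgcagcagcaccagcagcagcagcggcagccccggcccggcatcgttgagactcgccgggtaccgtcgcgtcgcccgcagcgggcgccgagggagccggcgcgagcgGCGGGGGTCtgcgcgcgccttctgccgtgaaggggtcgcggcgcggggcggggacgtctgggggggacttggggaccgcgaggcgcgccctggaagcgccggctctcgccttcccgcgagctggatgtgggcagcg

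The response was then asked for by more than 1 gene. Fibroblasts with *Gli1* plus *Ptch1* or *Hhip*, 287 at puberty and 294 in the adult, were set against 1435 and 1470 Gli1-negative cells of matched depth, with those 3 genes left out of the test. Of 13589 genes tested, 542 (3.99%) were higher and 551 (4.05%) lower, 8.04% together. *Boc* (log2 fold 1.37, adjusted p = 0.0244) and *Gli2* (1.01, 0.0393) were the members called among the 6 tested, and *Cdon* had 0.41 (0.121). The *Gli2* call was lost under 7 of 12 alternatives, with a log2 fold of 0.22 (adjusted p = 0.346) when cells were matched within the same subset membership. The *Boc* call was lost under 4 of 12, Scrublet removal among them (adjusted p = 0.0958), and held with the subset match (0.77, 0.00313). The total depended on the treatment of cells, at 277 genes without the cells that Scrublet marked and 475 with thinned cells.

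By size, among genes moving the same way in both libraries with at least 20 CPM in 1 sum, *Tenm2*, a teneurin adhesion protein, rose most, at 31.9 against 0.734 CPM at puberty and 86.2 against 1.26 CPM in the adult (log2 fold 5.78, adjusted p = 0.000854). *Tnfsf8*, a cytokine of the TNF family, followed with 4.70 (0.0370), almost wholly in the adult library, where it was at 31.8 against 0.329 CPM, since the pubertal sums held 1.13 and 0.564 CPM. *Lepr*, the leptin receptor, was at 8.18 against 1.02 and 51.0 against 2.20 CPM (3.98, 0.00222). *Nog*, the BMP antagonist noggin, was at 24.8 against 1.47 and 10.7 against 0.988 CPM (3.74, 0.00132). *Ptprb*, a receptor tyrosine phosphatase (3.99), *Foxd2os*, a non-coding RNA beside *Foxd2* (3.93), *Fat3*, a protocadherin (3.88), *Spp1*, osteopontin (3.86), *Cldn1*, a tight junction claudin (3.80), and *Fmod*, the matrix proteoglycan fibromodulin (3.75), completed the 10.

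**Figure D5:**
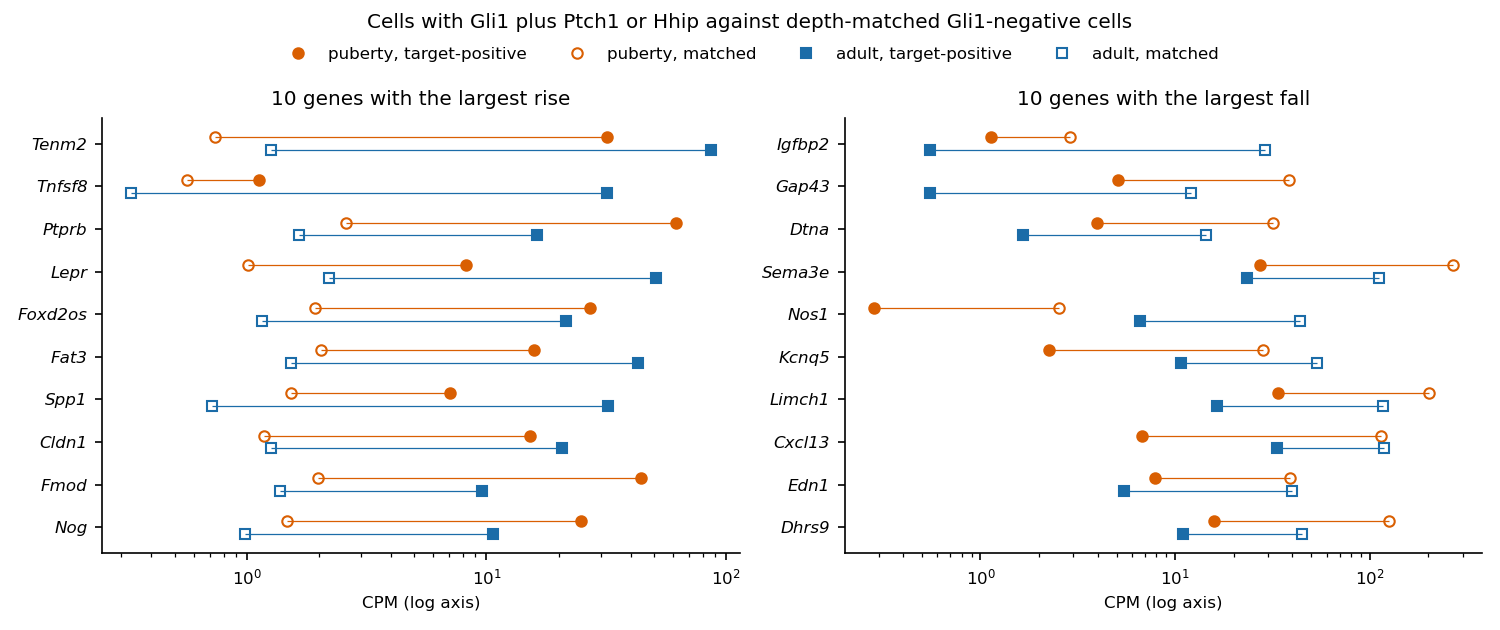
CPM (x axis, log scale) of the 10 genes with the largest rise (left) and fall (right) in fibroblasts with *Gli1* plus *Ptch1* or *Hhip* (filled symbols) against depth-matched Gli1-negative fibroblasts (open symbols), for the pubertal library (circles) and the adult library (squares). *Tenm2* goes from 0.734 to 31.9 CPM at puberty and from 1.26 to 86.2 CPM in the adult.

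Among genes that fell, *Igfbp2*, an IGF-binding protein, went from 28.9 to 0.549 CPM in the adult and from 2.88 to 1.13 CPM at puberty (log2 fold −4.13, adjusted p = 0.0168), so its fall came mainly from the adult library. *Gap43*, a growth cone protein, was at 5.08 against 38.5 and 0.549 against 12.0 CPM (−3.29, 0.00202). *Sema3e*, a secreted semaphorin, was at 27.4 against 268 and 23.3 against 112 CPM (−2.84, 0.00202). *Dtna*, dystrobrevin alpha (−3.10), *Nos1*, neuronal nitric oxide synthase (−2.79), *Kcnq5*, a potassium channel (−2.79), *Limch1*, an actomyosin regulator (−2.75), *Cxcl13*, a B cell chemokine (−2.74), *Edn1*, endothelin (−2.62), and *Dhrs9*, a retinol dehydrogenase (−2.61), fell as well.

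Matching cells within the same subset membership made these folds smaller, except those of *Igfbp2* and *Nos1*. Of the named genes 17 of 20 were still called, *Tenm2* went from a log2 fold of 5.78 to 2.63, *Ptprb* from 3.99 to 2.05 and *Sema3e* from −2.84 to −1.32. *Lepr* was at 3.13 and *Igfbp2* at −5.19, both called. The calls of *Tnfsf8* (3.01, adjusted p = 0.0960), *Gap43* (−1.25, 0.114) and *Edn1* (adjusted p = 0.0657) were lost. DESeq2 called 18 of the 20 named genes, and the fit without the library block called 0. Without the cells that Scrublet marked, 13 of the 19 that could be tested were called, and after thinning 9 of 9. Scrublet had marked 12.5% of target-positive and 9.06% of matched cells at puberty and 15.0% and 12.1% in the adult.

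Marker lists of the subsets moved with the target-positive cells. All 4 adipogenesis-regulatory markers were higher, with a median log2 fold of 2.69, and 6 of 7 progenitor markers lower, with a median of −2.07, beside a median of 0.00 over all genes tested. These lists hold the genes that picked the subsets. Gdf10 or Fmo2 cells made up 90.6% of target-positive against 37.5% of matched cells at puberty and 78.2% against 50.0% in the adult. Pi16+Dpp4+ cells made up 16.7% against 75.9% and 16.7% against 43.7%. Markers in this paragraph were not read with cells matched by subset membership. Of 6 surface markers used to sort fibroblasts, *Cd34* (log2 fold −0.70, adjusted p = 0.0464) and *Thy1* (−0.82, 0.0149) were lower and none higher. In the wider *Gli1*-positive comparison *Pdpn*, podoplanin, was also lower (−0.68, 0.0295). Mural markers moved upward too, 3 of 8 in target-positive cells and 4 of 8 in *Gli1*-positive cells, the pericyte genes *Abcc9*, *Cspg4* and *Kcnj8* in both and *Notch3* in the latter. Their summed level was 289 CPM in *Gli1*-positive against 155 CPM in matched cells at puberty and 237 against 103 CPM in the adult, and none of the 8 was at 0. An alternative without fibroblasts that carried 3 or more markers of another cell type was chosen after seeing the data. With it the *Gli1*-positive comparison again called 5 members, and the target-positive comparison called 874 of all genes. The target-positive calls of *Boc* and *Gli2*, the only members called there, were both lost with it.

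The remaining pathway genes were read as lists by role. Ligand RNA was near absent from fibroblasts. *Shh* had 0 UMIs in both libraries, which allows up to 0.0127 and 0.0121 CPM, *Ihh* had 8 and 14 UMIs, and *Dhh* had 24 and 30. *Dhh* was read in Schwann-like cells of the same sort, 51 and 50 cells negative for *Pdgfra*, with 23 and 27 UMIs or 112 and 74.1 CPM. Of the 8 genes for ligands and their release 6 could be tested in Pi16+Dpp4+ cells, with 1 higher and 2 lower. Over all genes 9.0% were higher there and 9.16% lower. The list's median log2 fold was −0.63, beside −0.01 over all genes tested. The higher gene was *Disp1*, a transporter for ligand release (log2 fold 1.82, adjusted p = 0.00872). In *Gli1*-positive cells *Disp1* was lower, at 21.1 against 49.8 CPM and 21.5 against 36.0 CPM (−1.02, 0.00455). *Scube1*, a secreted release factor, was at 2.67 CPM at puberty and 24.0 CPM in the adult (ratio 8.97, 8.26 to 9.75) and was lower in Pi16+Dpp4+ (−3.39, 0.0149) and target-positive cells (−1.73, 0.0150).

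In this comparison of *Gli1*-positive cells 9.91% of all genes were called, 4.98% higher and 4.93% lower. Of 7 known target genes of other families 4 could be tested, and *Bcl2*, a survival factor (1.03, 0.0151), and *Ccnd1*, cyclin D1 (1.12, 0.00637), were higher. Among 11 cytoplasmic regulators, which include *Sufu*, *Kif7* and *Spop*, only *Fbxw11*, a ubiquitin ligase subunit (−0.45, 0.0438), was called, and among 7 cilium genes only *Rpgrip1l* (−0.61, 0.0174), both lower, so that 1 of 11 is near the share over all genes. The medians of these lists were −0.04 and 0.04, beside 0.01 over all genes tested. Between stages, 2 of the 11 cytoplasmic regulators passed 1.5-fold upward and none downward, beside 12.0% and 5.09% of all genes. These were *Sufu*, the cytoplasmic inhibitor of GLI, at 14.9 and 27.5 CPM (ratio 1.84), and *Btrc*, a ubiquitin ligase subunit, at 36.0 and 67.2 CPM (1.87).

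Across the 10 sums of 5 subsets and 2 libraries, which share cells and libraries, the pattern of *Gli1* in log2(CPM + 1) was most like that of *Tspan11*, a tetraspanin (Pearson r = 0.96 among 9453 genes), followed by *F3*, tissue factor (0.89), *Slc44a2*, *Pcyox1* and *Bgn* (0.88 each). That of *Ptch1* was most like *Mgp*, matrix Gla protein (0.95), *Sgcd* (0.93), *Rtn2*, *P2ry1* (0.90 each) and *Adamts10* (0.89). *Gli1* itself had r = 0.80 with *Ptch1* and 0.80 with *Hhip*. These are descriptions of 10 overlapping sums.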

How the data were processed

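Droplet scRNA-seq of 1 pubertal and 1 adult library was analysed. For each library the authors deposited filtered UMI counts, not normalized, by gene and barcode, made with Cell Ranger 8.0.1 per the submitters' processing notes, which name the mm10 build. Where the study's methods differ from the labels (in the kit, the Cell Ranger version and the pubertal age), the labels were followed. Cell Ranger counts reads by strand and drops those that map to several genes, and a 3′ kit reads one end of each transcript.

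The counts were used as deposited. Cells had at least 500 genes, at most 10% mitochondrial UMIs and at least 1 *Pdgfra* UMI. No doublets were removed, since the study's caller was not used here, and removal of the 0.4% per 1000 barcodes with the highest Scrublet score (scanpy 1.11.5) was an alternative, which marked 1881 and 2150 barcodes. Library totals were 255274670 UMIs at puberty and 259549498 in the adult, of which fibroblasts held 236676546 and 247538165, so that 3 counts among fibroblasts are 0.0127 and 0.0121 CPM. Subsets required 1 UMI of a marker, 2 for *Fabp4*, or both *Pi16* and *Dpp4*.

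Sums in and out of a group of cells were tested with edgeR 4.0.16 under R 4.3.3 (filterByExpr, TMM normalization, glmQLFit and glmQLFTest, library as block) at an adjusted p of 0.05, with Benjamini-Hochberg adjustment over all genes tested, and genes that picked the cells were left out. DESeq2 1.42.0, other scalings and other cell filters were alternatives. *Gli1*-positive cells were matched to 5 Gli1-negative cells each by UMI depth. Stage ratios have conditional binomial intervals at 95% and no p-value. Thinning drew 3000 UMIs per cell without replacement, and shallower cells (336 and 426 fibroblasts) were left out. The scripts were tested on simulated data. Named were all 9 members, the 10 genes with the largest rise and the 10 with the largest fall among those called with the same sign in both libraries and at least 20 CPM in 1 sum, and the 5 genes most like *Gli1* and *Ptch1* over the subset sums among genes with at least 10 CPM in 1 sum. The members, lists and rules were chosen with earlier results of these data known. Gene positions are from the GRCm38 annotation given with the reference and promoters from RefSeq (GRCm38.p6). Some results for other membrane regulators are not reported here.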

Additional observations from a re-analysis of the deposited data

Results flagged for a closer look

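*Cdon* moved in opposite directions in the libraries in 2 contrasts, with counting intervals that exclude 0 in both. In Pi16+Dpp4+ cells against the remaining fibroblasts its log2 ratio of CPM was −0.46 at puberty and 0.31 in the adult, and in Cd34-negative against Cd34-positive cells it was 0.18 at puberty and −0.33 in the adult. *Smo* did so in Thbs4 or Bmp5 cells, with 0.26 at puberty and −0.13 in the adult. With 1 library per stage, none of these differences between stages was tested.

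*Gas1* differed in direction between subsets in the adult over pubertal log2 ratio. It was 0.54 in Pi16+Dpp4+, 0.43 in Gdf10 or Fmo2, 0.22 in Thbs4 or Bmp5 and 0.43 in Fabp4 cells, and −0.21 in Crabp1 cells, of which the pubertal library held 289. The difference was not tested.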

How the results depend on the processing

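The numbers of members that passed the test are given here under other settings. Without the library block the fits called 0 members in every contrast between cells, against 6 in Pi16+Dpp4+, 5 in Gdf10 or Fmo2, 1 in Fabp4, 5 in Crabp1, 4 in Cd34-negative and 5 in Gli1-positive cells, and 0 genes in the profile of fibroblasts with *Gli1* plus *Ptch1* or *Hhip*, against 1093. In Gdf10 or Fmo2 cells it was 3 with only cells of that subset alone and 8 with no filter on low counts. In Thbs4 or Bmp5 cells, where 0 passed, it was 2 by DESeq2, 1 without Scrublet doublets, 4 with only cells of that subset alone, 5 with no filter, 1 after thinning, 2 without cells above the 99th percentile of genes, and 2 without cells with 3 or more markers of another type, a setting chosen after seeing the data. In Fabp4 cells it was 3 with only cells of that subset alone and 2 by DESeq2, with DESeq2 size factors, from 1000 genes, at 5% mitochondrial UMIs, with no filter and without the 99th percentile. In Crabp1 cells it was 3 after thinning. In Gli1-positive cells it was 2 after thinning and 3 against cells matched by subset. The profile held 277 genes without Scrublet doublets (155 higher, 122 lower), 475 after thinning (215 and 260), 715 without the 99th percentile (348 and 367) and 1927 with no filter (852 and 1075). Between stages, the 7 members past 1.5-fold were 3 under TMM and 3 with equal weight for 5 subsets. The cause of these shifts was not tested, apart from the smaller number of cells or UMIs that some settings leave. Among single values, 2 reversed, both for the adult over pubertal log2 ratio of *Hhip*, which was 0.0072 in Fabp4 cells after thinning and 1.29 in Thbs4 or Bmp5 cells with only cells in 1 subset.

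No paired analysis was possible because each stage has 1 library and both carry replicate number 2, so the groups share only 1 number. Leaving out a library gives a value with no test. Each stage rests on 1 library, intervals cover counting error only, and few UMIs lie behind *Gli1* in the small subsets. Fewer cells with a transcript and less RNA per cell cannot be told apart in the sums.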
